A study of Mus musculus with 24 samples.

Results

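The 10 genes described here are transcripts of the circadian clock, Per1, Per2, Per3, Cry1, Cry2, Clock, Nr1d1, Nr1d2, Dbp and Tef. They were taken by symbol, and all 10 were present in each of the 4 deposited expression tables, which together list 14769 genes. Mammalian cells keep daily time with a feedback loop of transcription. CLOCK, paired with BMAL1 (gene Arntl) or replaced by its relative NPAS2, binds E-boxes in the promoters of the Per and Cry genes, and the PER and CRY proteins return to the nucleus to block that activation. A linked loop runs through the nuclear receptors REV-ERB alpha and beta (Nr1d1 and Nr1d2), which repress Arntl, and the ROR receptors, which activate it. The PAR bZIP factors DBP, TEF and HLF carry the rhythm to output genes through D-boxes. In the brain, Per1 and Per2 are also induced by neuronal activity and by glucocorticoids.

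Cortical RNA was taken from males of 3 to 4 months, kept in single cages under light and dark periods of 12 h each. A filament closed the middle cerebral artery for 1 h and was then withdrawn for 1 day of reperfusion, which models ischemic stroke. Genotypes were wild type (WT) and a knockout (KO) of the circular RNA ciRS-7, whose gene symbol is Cdr1as, and the strain given for both is C57BL/6N-Cdr1asem1Nikr. Each animal gave a CL and a PI cortex library, marks that the labels do not spell out and that are used as given, with side as a short name for the pair. The groups CL WT, CL KO, PI WT and PI KO held 6 libraries each, from 12 animals. All animals had the surgery, so no group without a stroke operation was compared, and the hour of surgery or of tissue collection is not in the labels used here.

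Levels are log2 CPM, the log2 of a gene's reads per M reads (megareads) of the library. In these files the 2 lowest and the 2 highest values of each group of 6 had been drawn in to the group's quartiles. Solving the quartile rule recovers 4 inner values per gene and group, and the 2 extremes cannot be recovered. Values per group are therefore given as the second lowest, the median and the second highest, and means are trimmed means of the 4 recovered values with an SE for n = 6. Effective depth read from the values was 3.75 to 10.5 M reads per library, and no recoverable value of a clock gene rested on fewer than 72.7 reads. Cdr1as stood at 2594 to 3809 CPM in the WT groups and at most 0.169 CPM in the KO groups over the recoverable values. All 9 markers of cortical excitatory neurons were listed, with summed levels of 956.2 to 1267 CPM per library. Markers of striatum were also listed (6 of 8, summed levels 114.6 to 185.5 CPM), whereas 1 of 10 neutrophil and monocyte markers was listed in the tables comparing PI with CL.

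The clock genes differed widely in level and kept much the same order in the 4 groups. Per kilobase of annotated exon, Nr1d2 was the most abundant, with a trimmed mean of 45.6 CPM per kb in CL WT, followed by Tef at 36.0 and Clock at 21.9 CPM per kb. Cry2 (12.7), Nr1d1 (12.1) and Dbp (11.7 CPM per kb) came next, and the recoverable values of neighbours in this trio overlapped. Per3 stood at 8.47, Per1 at 6.61, Cry1 at 6.00 and Per2 at 4.88 CPM per kb. Per1 and Cry1 overlapped, while Per2 lay below Cry1 without overlap in CL WT. In CL KO the same order held, with Cry1 at 5.86 and Per2 at 5.82 CPM per kb. In PI KO, Cry1 stood at 6.99 CPM per kb, next to Per3 at 6.83 CPM per kb.

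**Figure D1:**
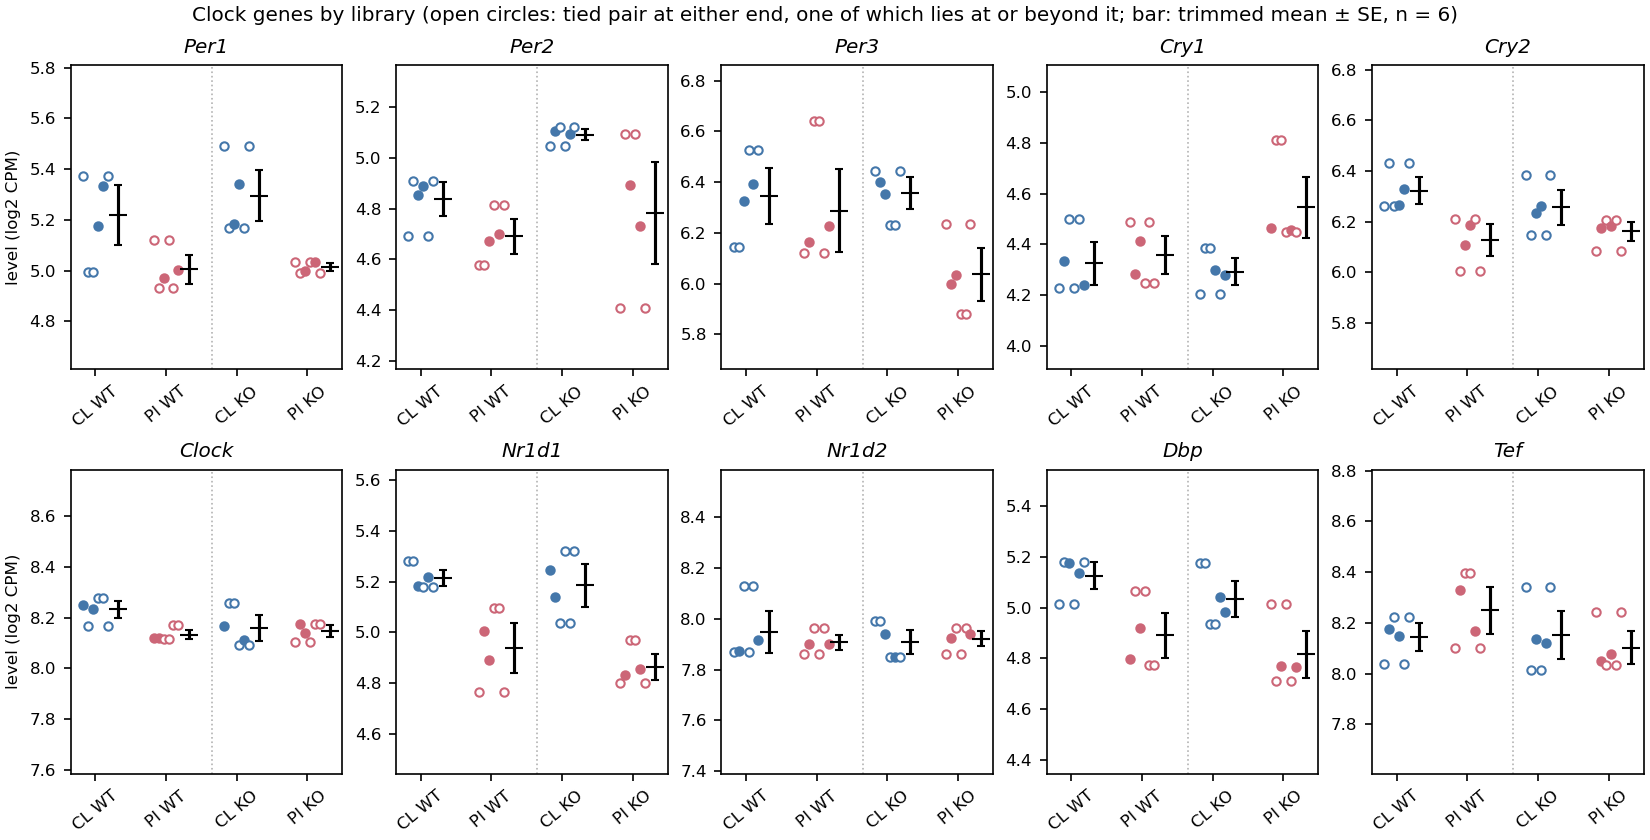
Level of each clock gene (log2 CPM, vertical axis, the same span in every panel) in the libraries of the 4 groups (horizontal axis), with CL in blue and PI in red. Filled circles are recovered values, open circles are the tied pair at either end of a group, of which one lies at or beyond the circle, and the black bar is the trimmed mean ± SE (n = 6); WT and KO were scaled in separate tables, and Nr1d1 stands lower in PI in both.

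PI was set against CL within each genotype to ask how clock transcripts differed between samples of the same brains after stroke. In a test that did not pair libraries by animal, no member passed an adjusted p of 0.05 in WT, and only Nr1d1 passed in KO. These counts of 0 of 10 and 1 of 10 stand beside 10.6% of 14489 genes called in WT and 10.04% of 14338 genes called in KO by the same test (moderated trimmed means with limma's empirical Bayes step, Benjamini-Hochberg adjustment over the table). An unadjusted p under 0.05 was found for 3 members in WT and 4 in KO, beside 23.9% and 24.9% of all genes. With libraries paired by animal (the block), 1 member was called in WT and 3 in KO, beside 15.7% and 15.02% of all genes. The sign was negative (lower in PI) for 8 of 10 members in each genotype, beside 47.7% of all genes in WT and 50.1% in KO, and Cry1 in WT and Nr1d2 in KO also became negative after centring the groups on their median genes. The members had a median log2 difference of -0.12 in WT and -0.16 in KO. The median over all genes was 0.01 in WT and -0.001 in KO. The median size of the difference regardless of sign was 0.12 for members and 0.13 for all genes in WT, and 0.24 and 0.15 in KO.

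Nr1d1 encodes REV-ERB alpha, the heme-binding repressor of Arntl (chromosome 11, 98767932 to 98775333, minus strand, GRCm38). In CL WT its second lowest, median and second highest levels were 5.18, 5.20 and 5.28 log2 CPM, and in PI WT they were 4.76, 4.95 and 5.09 log2 CPM. In CL KO they were 5.04, 5.19 and 5.32 log2 CPM, and in PI KO 4.80, 4.84 and 4.97 log2 CPM. The recoverable values of PI lay below those of CL without overlap in both genotypes. Such separation toward lower values in PI was found for 2 members in each genotype, beside 13.1% of all genes in WT and 13.4% in KO, and Nr1d1 was one of them in both. In KO, Nr1d1 fell by 0.32 in log2 units, from 36.4 to 29.1 CPM (SE 0.09, adjusted p = 0.0494 by the trimmed-mean test). Without a mean-dependent prior that call was lost (adjusted p = 0.103). In WT the difference was -0.28 (SE 0.09, adjusted p = 0.0811), and it passed when libraries were paired by animal (adjusted p = 0.0230 with the block, beside 15.7% of all genes called that way). Across the WT animals, CL and PI values of Nr1d1 had r = -0.116, so this pass does not show that pairing reduced its spread. The WT difference also passed after centring on the median gene (adjusted p = 0.0490). In 3 of the 6 animals of each genotype Nr1d1 was lower in PI, in 0 it was higher, and in the other 3 the drawn-in values leave the sign undetermined. In bulk tissue, fewer cells of a type that carries a transcript and less of it per cell cannot be told apart. Nr1d1 shares 263 exonic bases (8.5% of its exon length) with Thra on the opposite strand, and the use of strand in counting is not given in the sources used here, so its level is uncertain to that extent.

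Values of other cell markers and of activity genes differed between the sides along with Nr1d1. The summed level of 11 neuron markers, all listed, ran from 7916 to 8876 CPM in PI WT and from 9113 to 9752 CPM in CL WT, and from 7636 to 8676 CPM in PI KO and 8966 to 9465 CPM in CL KO. The summed level of 10 microglia markers, all listed, ran from 217.4 to 248.6 CPM in PI WT and from 189.0 to 202.5 CPM in CL WT, and from 237.8 to 296.9 CPM in PI KO and 199.9 to 220.5 CPM in CL KO. The summed level of 10 astrocyte markers, all listed, ran from 6805 to 7317 CPM in PI WT and from 7577 to 8071 CPM in CL WT, and from 6597 to 7362 CPM in PI KO and 7614 to 8240 CPM in CL KO. The 9 cortical excitatory markers summed to 1012 to 1088 CPM in PI WT and 1124 to 1267 CPM in CL WT, and to 956.2 to 1084 CPM in PI KO and 1156 to 1215 CPM in CL KO. The neuron, astrocyte and excitatory sums were thus lower and the microglia sums higher in PI. Their values as recovered did not overlap between the sides in either genotype. Each gene's extremes enter these sums at its second lowest or second highest value, so the full ranges may be wider and may overlap. Single markers did not all follow their sum. At an adjusted p under 0.05, 2 astrocyte markers passed as higher and 2 as lower in WT, and 2 and 1 in KO. Gfap and Aqp4 were higher and Slc1a2 and Gja1 lower in PI without overlap in both genotypes. Among microglia markers 6 passed as higher and 1 as lower in each genotype, with P2ry12 lower without overlap. Among neuron markers 3 passed as lower in each genotype, and 0 as higher in WT and 1 in KO. The sums of oligodendrocyte markers and of endothelial and mural markers overlapped between the sides in both genotypes. Of 21 immediate early genes, 9 were called lower and 2 higher in PI in WT, and 7 lower and 2 higher in KO, at an adjusted p under 0.05. Among all genes, 5.40% were called lower and 5.20% higher in WT, and 4.94% lower and 5.11% higher in KO. The part of the cell markers and immediate early genes in the differences of the clock genes was not tested.

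Among the core repressors, the 3 Per genes had negative differences in both genotypes, and none passed the unpaired trimmed-mean test on the values as scaled. Per1 lies on chromosome 11 from 69095217 to 69109960 on the plus strand and is among the clock genes that respond early to light. Its second lowest, median and second highest levels were 5.17, 5.26 and 5.49 log2 CPM in CL KO and 4.99, 5.02 and 5.04 log2 CPM in PI KO. The recoverable PI KO values lay close to each other and below those of CL KO without overlap. The difference was -0.28 (SE 0.10, adjusted p = 0.0831), and it passed when libraries were paired by animal (adjusted p = 0.0373 with the block). Across the KO animals, CL and PI values of Per1 had r = 0.154, and its SE was 0.0956 unpaired and 0.0937 with the block. The pass therefore does not show that pairing reduced its spread by much. In WT, Per1 stood at 4.99, 5.26 and 5.37 log2 CPM in CL and at 4.93, 4.99 and 5.12 log2 CPM in PI, with overlap and a difference of -0.21 (SE 0.11, adjusted p = 0.256).

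Per3, whose product joins the PER complexes but is not needed for rhythm itself, lies on chromosome 4 from 151003652 to 151044665 on the minus strand. It stood at 6.23, 6.38 and 6.45 log2 CPM in CL KO and at 5.88, 6.01 and 6.24 log2 CPM in PI KO, so that the groups met at their edges. The difference of -0.32 (SE 0.10) had an adjusted p of 0.0609 by the trimmed-mean test and passed when libraries were paired by animal (adjusted p = 0.00277 with the block). After centring on the median gene it passed without pairing (adjusted p = 0.0377). In WT the groups overlapped throughout, from 6.14 to 6.53 log2 CPM in CL and from 6.12 to 6.64 log2 CPM in PI, with a difference of -0.06 (SE 0.14, adjusted p = 0.860). With the block, 3 members were called in KO, Per1, Per3 and Nr1d1, beside 15.02% of all genes. Across the KO animals, CL and PI values had r = 0.920 for Per3, 0.154 for Per1 and -0.210 for Nr1d1.

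Per2, whose protein helps set the period through its phosphorylation (chromosome 1, 91415982 to 91459324, minus strand), was spread unevenly. In KO its second lowest, median and second highest levels were 5.05, 5.10 and 5.12 log2 CPM in CL and 4.41, 4.81 and 5.10 log2 CPM in PI. CL KO was thus the tightest and PI KO the widest of the 4 groups for this gene over the recoverable values, and they overlapped at their upper ends. The difference was -0.31 in KO (SE 0.155, adjusted p = 0.239) and -0.15 in WT (SE 0.09, adjusted p = 0.381).

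Cry1 and Cry2 encode the cryptochromes, the strongest repressors of CLOCK and BMAL1. Their differences had opposite signs in both genotypes, though that of Cry1 in WT became negative after centring on the median gene. Cry1 (chromosome 10, 85131700 to 85185064, minus strand) stood at 4.20, 4.29 and 4.38 log2 CPM in CL KO and at 4.45, 4.46 and 4.81 log2 CPM in PI KO. It was the only member whose PI values lay above CL without overlap in KO, which 13.4% of all genes did. Its difference of 0.25 (SE 0.12) had an adjusted p of 0.201 by the trimmed-mean test, and in WT the difference was 0.03 (SE 0.11, adjusted p = 0.898). Cry2 (chromosome 2, 92403646 to 92434043, minus strand) stood at 6.26, 6.30 and 6.43 log2 CPM in CL WT and at 6.00, 6.15 and 6.21 log2 CPM in PI WT, without overlap. Its difference was -0.19 in WT (SE 0.08, adjusted p = 0.132) and -0.09 in KO (SE 0.08, adjusted p = 0.490).

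Clock, the activator subunit (chromosome 5, 76209868 to 76304792, minus strand), was among the most evenly expressed members. It stood at 8.17, 8.24 and 8.28 log2 CPM in CL WT and at 8.12, 8.12 and 8.17 log2 CPM in PI WT, with a difference of -0.10 (SE 0.05, adjusted p = 0.253). In KO the difference was -0.01 (SE 0.06, adjusted p = 0.940). Nr1d2, which encodes REV-ERB beta (chromosome 14, 18204054 to 18239127, minus strand), had a difference of -0.04 in WT (SE 0.07, adjusted p = 0.807) and 0.01 in KO (SE 0.06, adjusted p = 0.913). The 95% interval for Nr1d2 ran from -13.0% to 8.8% in WT and from -7.6% to 10.4% in KO. The relative change of Nr1d1 and that of Nr1d2, the other REV-ERB gene, were not tested against each other.

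Of the PAR bZIP members, Dbp had a negative difference in both genotypes and the sign for Tef differed between genotypes. Dbp, a textbook direct target of CLOCK and BMAL1 (chromosome 7, 45705088 to 45710203, plus strand), stood at 5.01, 5.16 and 5.18 log2 CPM in CL WT and at 4.78, 4.86 and 5.07 log2 CPM in PI WT. Its difference was -0.24 (SE 0.09, adjusted p = 0.140) in WT and -0.22 (SE 0.11, adjusted p = 0.221) in KO, and the groups overlapped at their edges. Dbp shares 539 exonic bases (18.0% of its exon length) with Sphk2 on the opposite strand, which adds to the uncertainty of its level. Tef (chromosome 15, 81802421 to 81826863, plus strand) had a difference of 0.10 in WT (SE 0.09, adjusted p = 0.521) and -0.05 in KO (SE 0.09, adjusted p = 0.789).

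**Figure D2:**
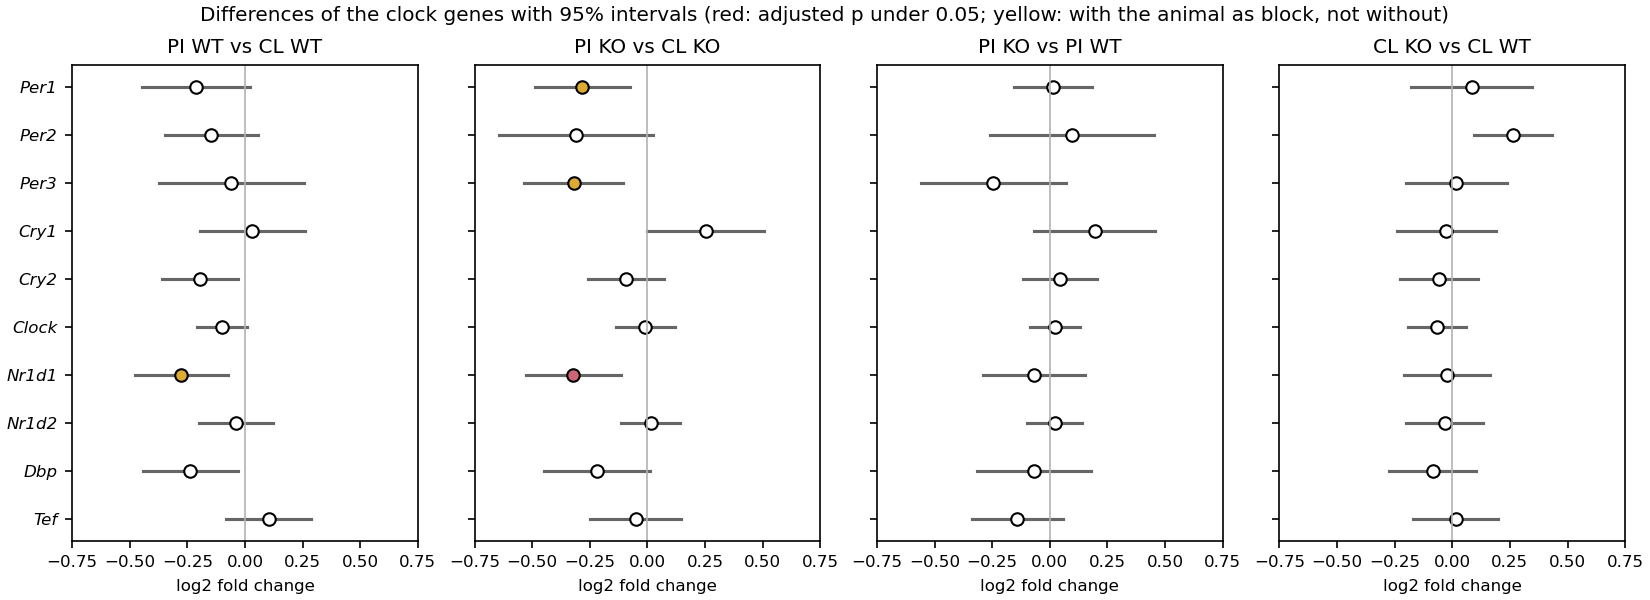
Log2 fold change (horizontal axis) of each clock gene with its 95% interval, in the 4 comparisons of 6 with 6 libraries. Red marks an adjusted p under 0.05 in the unpaired test and yellow one under 0.05 with the animal as block but not in the unpaired test; Nr1d1 in KO is the single red point, and the intervals of both comparisons of KO with WT include 0 for every gene except Per2 in CL.

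The stretches upstream of the 4 genes with the largest differences between sides in KO, other than Per2, are shown because these genes are classed by the clock elements they carry. The sequences are the 250 bases before the RefSeq transcription start (GRCm38.p6), 5′ to 3′ on the gene's strand, with matches in capitals. The RefSeq start used for Per1 lies inside the GENCODE span given above.
Nr1d1, chr11:98775378-98775627, minus strand: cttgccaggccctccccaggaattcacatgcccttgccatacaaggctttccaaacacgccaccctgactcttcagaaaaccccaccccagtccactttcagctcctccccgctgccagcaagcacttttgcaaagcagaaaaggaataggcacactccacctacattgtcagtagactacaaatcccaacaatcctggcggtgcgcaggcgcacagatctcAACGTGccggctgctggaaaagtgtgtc
Per1, chr11:69098699-69098948, plus strand: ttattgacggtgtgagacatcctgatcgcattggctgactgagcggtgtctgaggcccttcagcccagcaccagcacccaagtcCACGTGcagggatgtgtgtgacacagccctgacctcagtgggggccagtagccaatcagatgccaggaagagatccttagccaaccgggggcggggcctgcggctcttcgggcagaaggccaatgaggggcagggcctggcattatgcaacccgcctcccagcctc
Per3, chr4:151044666-151044915, minus strand: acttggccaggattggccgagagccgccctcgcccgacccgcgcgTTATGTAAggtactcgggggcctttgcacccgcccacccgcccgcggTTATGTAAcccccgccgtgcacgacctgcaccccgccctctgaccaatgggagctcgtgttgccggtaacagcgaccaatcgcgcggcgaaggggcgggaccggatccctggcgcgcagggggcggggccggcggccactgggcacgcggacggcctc
Cry1, chr10:85185055-85185304, minus strand: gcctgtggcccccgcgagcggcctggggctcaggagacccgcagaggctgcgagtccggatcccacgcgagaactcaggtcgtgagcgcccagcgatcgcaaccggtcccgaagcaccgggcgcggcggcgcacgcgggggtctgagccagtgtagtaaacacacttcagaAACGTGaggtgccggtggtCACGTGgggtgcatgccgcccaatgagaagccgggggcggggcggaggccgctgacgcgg

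Both strands were searched for 5 patterns. The E-box was CACGTG, and 6.02% of the 32851 windows in the table held it. Its variant was spelled CACGTT, which reads AACGTG on the opposite strand, and 3.85% held it. The D-box was searched as TTANGTAA and was in 2.06% of windows. The cyclic AMP response element was TGACGTCA and was in 1.55% of windows. The response element of ROR and REV-ERB (RORE), which needs ambiguous letters, was in 0.33% of windows. Counted back from the start, with -1 as the base before it, the E-box of Per1 began at -166, and the other of its 2 windows in the table, not printed, held 0 matches. Cry1 had an E-box at -60 and the variant at -79, and Nr1d1 had the variant at -28. Per3 held a pair of D-boxes, beginning at -205 and -158, and no E-box in this window. Thus Per1, with a negative difference in PI KO, and Cry1, with a positive one, both held an E-box. A match describes the letters and is not a bound site.

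The rest of the clock network was read from 30 further genes listed in the tables. In WT 4 of the 30 fell and 2 rose in PI, and in KO 2 fell and 3 rose, beside 10.6% and 10.04% of all genes called. Their median log2 difference was -0.03 in both genotypes. Those that fell encode the activators Arntl and Npas2, the ROR receptor Rorb and the PAR bZIP factor Hlf, with Npas2 and Hlf called in both genotypes.

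Hlf, the third PAR bZIP factor and partner of Dbp and Tef (chromosome 11, 90336536 to 90390895, minus strand), had the lowest adjusted p of the network. It stood at 8.20, 8.37 and 8.43 log2 CPM in CL WT and at 7.47, 7.51 and 7.58 log2 CPM in PI WT, and at 8.30, 8.34 and 8.50 log2 CPM in CL KO and 7.36, 7.54 and 7.63 log2 CPM in PI KO. Every recoverable PI value lay below every CL value in both genotypes. Hlf fell by 0.82 in log2 units in WT (SE 0.07, adjusted p = 2.59e-05) and by 0.86 in KO (SE 0.08, adjusted p = 6.28e-05) by the trimmed-mean test. In CPM this was 324.1 to 183.5 in WT and 331.1 to 182.8 in KO, while the same side comparison gave -0.24 and -0.22 for Dbp and 0.10 and -0.05 for Tef.

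Npas2, the relative of Clock that is prominent in forebrain (chromosome 1, 39193731 to 39363236, plus strand), fell by 0.25 log2 units in WT (SE 0.07, adjusted p = 0.0390) and by 0.40 in KO (SE 0.09, adjusted p = 0.0121). Its levels ran from 5.30 to 5.50 log2 CPM in CL WT and from 5.15 to 5.17 log2 CPM in PI WT. Arntl, the gene of BMAL1 (chromosome 7, 113207465 to 113314126, plus strand), fell by 0.45 in WT (SE 0.11, adjusted p = 0.0168), from 4.79 to 4.88 log2 CPM in CL WT and from 4.14 to 4.52 log2 CPM in PI WT. In KO the difference of Arntl was -0.36 (SE 0.17, adjusted p = 0.203, or 0.0365 with the animal as block). Both Arntl and its repressor gene Nr1d1 thus had negative differences in PI.

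Rorb, a ROR receptor that also marks layer 4 excitatory neurons, fell by 0.78 in WT (SE 0.13, adjusted p = 0.00186), and its difference in KO was -0.55 (SE 0.18, adjusted p = 0.0678, or 6.56e-05 with the block). Rorb is also on the list of cortical excitatory markers. Csnk1d, the kinase that phosphorylates PER proteins, rose in KO by 0.27 (SE 0.07, adjusted p = 0.0259), and its difference in WT was 0.18 (SE 0.07, adjusted p = 0.136). Of the outputs, Cdkn1a, a cell cycle inhibitor that is also a p53 target, rose by 0.81 in WT and 1.18 in KO (adjusted p = 0.000893 and 0.000732). Tspan4, a tetraspanin, rose by 1.05 in WT and 0.96 in KO (adjusted p = 0.00291 and 0.00993). Bhlhe40 and Bhlhe41 encode E-box repressors and had differences of opposite sign, -0.24 and 0.29 in WT, neither called without the block (adjusted p = 0.163 and 0.0528).

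**Figure D3:**
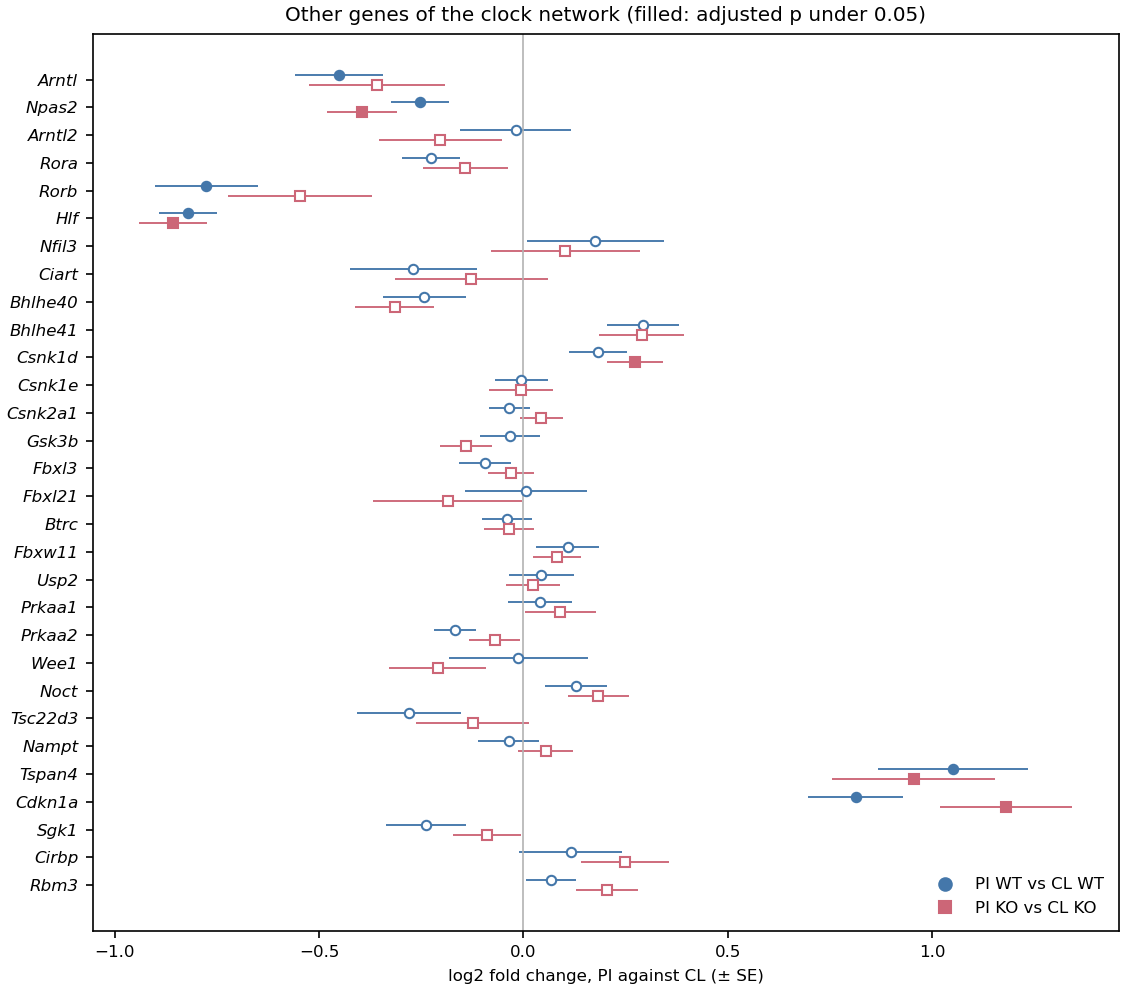
Log2 fold change of PI against CL (horizontal axis, ± SE, 6 libraries a group) of the 30 other listed genes of the clock network, with WT as blue circles and KO as red squares. Filled symbols passed an adjusted p of 0.05; Hlf lies near -0.8 in both genotypes, and Tspan4 and Cdkn1a lie farthest to the right.

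KO was then compared with WT within each side. Clock transcripts are known to vary with the hour of the day, which the labels used here do not give. Between PI KO and PI WT, 0 of 10 members were called, beside 0.0208% of 14452 genes, and 0 had an unadjusted p under 0.05, beside 5.75% of genes. The log2 differences ran from -0.24 for Per3 to 0.19 for Cry1, with a median of 0.02. Dbp and Nr1d1, whose levels swing widely over the day in many tissues, differed by -0.07 each (SE 0.11 for Dbp and 0.10 for Nr1d1). Their 95% intervals ran from -19.6% to 13.2% for Dbp and from -18.2% to 11.2% for Nr1d1. Per1 had an interval from -10.3% to 13.3%, whereas that of Per2 was wider, from -16.4% to 36.9%.

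Between CL KO and CL WT, 0 of 10 members were called, beside 0.0279% of 14323 genes, and 1 had an unadjusted p under 0.05, beside 5.73% of genes. That gene was Per2, at 4.66, 4.84 and 4.88 log2 CPM in CL WT and at 5.02, 5.07 and 5.09 log2 CPM in CL KO. All recoverable CL KO values lay above those of CL WT, a separation found for 4.35% of all genes. The difference was 0.26 (SE 0.08, unadjusted p = 0.00547, adjusted p = 0.638 over the table by the trimmed-mean test), with an interval from 6.6% to 35.2%. The other 9 members lay between -0.09 for Dbp and 0.08 for Per1. Dbp had an interval from -17.2% to 7.4% and Nr1d1 one from -13.4% to 12.0%. Arntl, which peaks opposite to the Per genes and Dbp, differed by -0.17 (SE 0.09, adjusted p = 0.882). Its recoverable CL KO values, 4.45 to 4.73 log2 CPM, lay below those of CL WT, 4.76 to 4.84 log2 CPM. A separation toward lower values in CL KO was found for 4.32% of all genes. Of the 30 other clock genes, 0 were called in either comparison of genotypes, and 1 in each had an unadjusted p under 0.05.

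Genes induced by neuronal activity and by glucocorticoids, signals to which Per genes respond, had differences mostly of one sign between the CL groups, though none was called. Of 21 immediate early genes, 20 had positive differences in CL KO against CL WT, with a median of 0.40. Of the 21, 16 had an unadjusted p under 0.05, beside 5.73% of all genes, and 0 were called. Their summed level ran from 1158 to 1296 CPM in CL KO and from 939.6 to 1081 CPM in CL WT. All 13 glucocorticoid response genes had negative differences, with a median of -0.22. Of the 13, 8 had an unadjusted p under 0.05, beside the same 5.73%, and 0 were called. The summed level of these 13 ran from 649.9 to 766.7 CPM in CL KO and from 790.3 to 835.6 CPM in CL WT. The part of either list in the difference of Per2 was not tested. Egr1, an activity-induced factor, differed by 0.51 (SE 0.09, adjusted p = 0.197), and Per1, which responds to both signals, differed by 0.08 (SE 0.12, adjusted p = 0.978). The shift of the immediate early genes was not particular to CL. Between PI KO and PI WT, 18 of 20 listed had positive differences, with a median of 0.37. Of the 20, 6 had an unadjusted p under 0.05, beside 5.75% of genes, and 0 were called. Among the 13 glucocorticoid response genes, 9 were negative there, with a median of -0.02. Per2 differed by 0.10 (SE 0.16) between those PI groups. The 2 lists had been seen in earlier results of these data and are no independent support.

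The side difference was compared between genotypes with an interaction term over 14211 genes. No member was called (0 of 10, beside 0% of all genes, and 0 members beside 4.55% of genes at an unadjusted p under 0.05), and the smallest adjusted p of a member was 0.992. For Per3 the side difference in KO minus that in WT was -0.26 (SE 0.19 in log2 units), with a 95% interval of the ratio from -36.9% to 10.3%, and for Cry1 it was 0.22 (SE 0.16), with an interval from -7.9% to 47.6%. For Nr1d1 it was -0.04 (SE 0.14), from -20.5% to 18.1%, and for Hlf -0.04 (SE 0.12), from -17.4% to 15.2%. The calls of Nr1d1 in KO and not in WT therefore do not show a difference between genotypes.

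The CL and PI libraries of one number come from the same animal, so each member's level in CL was compared with its level in PI across animals. Over 20 relations (10 genes in 2 genotypes, 6 animals each), 0 passed after adjustment and 2 had an unadjusted exact permutation p under 0.05. Nr1d2 in WT had a Pearson r of 0.948 (exact permutation p = 0.00556, adjusted p = 0.111; Spearman rho 1.000, exact p = 0.0111, adjusted p = 0.222), with r = 0.661 without the 2 animals farthest from the median in CL. Per3 in KO had r = 0.920 (exact permutation p = 0.0333, adjusted p = 0.259; Spearman rho 0.939, exact p = 0.0222, adjusted p = 0.222), with r = 0.850 without 2 animals. The sign was positive in 11 of 20, in 6 of 10 members in WT and 5 of 10 in KO. Among all genes it was positive in 61.1% in WT and 58.8% in KO. The share of all genes with an unadjusted p under 0.05 was not computed for this relation. The median r of the members was 0.382 in WT and 0.042 in KO, and over all genes it was 0.123 and 0.089. These values include drawn-in extremes.

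Members were also compared with each other across the 12 animals, each animal being the mean of its CL and PI deviations from the group means. Of 45 pairs, 0 passed after adjustment, 5 had an unadjusted permutation p under 0.05, and 18 were positive, with a median r of -0.036. The highest r was 0.729 for Cry1 with Clock (permutation p = 0.0176, adjusted p = 0.265; Spearman rho 0.508, p = 0.110, adjusted p = 0.624), and r was 0.484 without the 2 farthest animals. Cry1 and Nr1d2 had r = 0.720 (permutation p = 0.00777, the smallest of the 45, adjusted p = 0.265; Spearman rho 0.580, p = 0.0545, adjusted p = 0.624), and r = 0.75 without 2 animals. Per3 and Tef had r = 0.712 (permutation p = 0.0130, adjusted p = 0.265; Spearman rho 0.707, p = 0.0110, adjusted p = 0.496), and r = 0.662 without 2 animals. Dbp, an output of the same loop as Per1, had an r of -0.201 with Per1 and -0.430 with Clock.

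**Figure D4:**
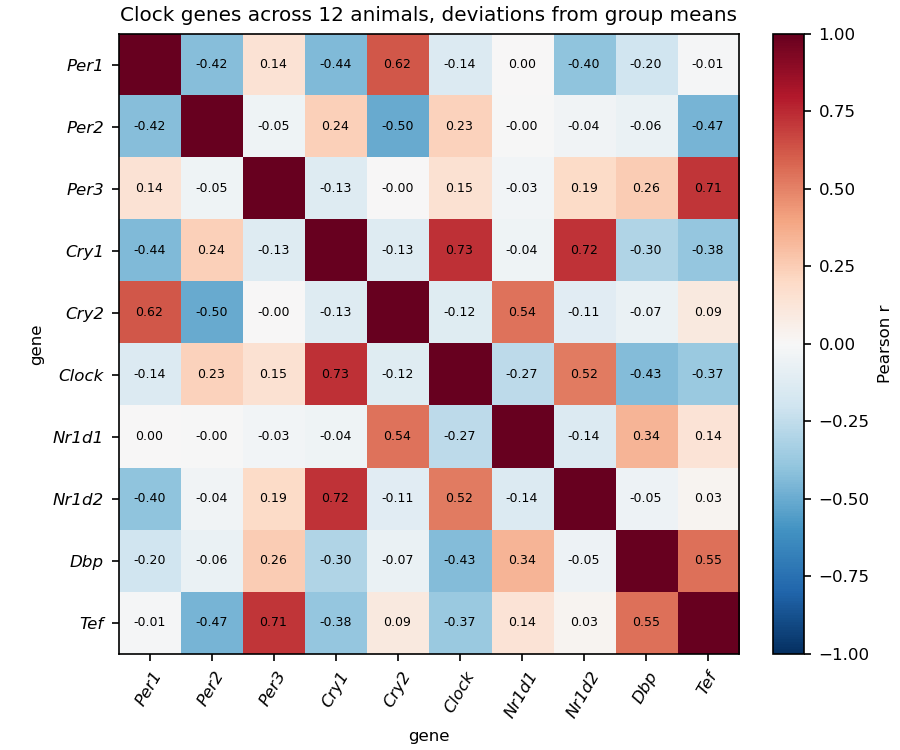
Pearson r (color, from -1 in blue to 1 in red) between pairs of clock genes over 12 animals, after removal of group means. Cry1 with Clock is the highest off-diagonal value at 0.73, and none of the 45 pairs passed after adjustment.

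Among 11798 genes with a mean of at least 2 log2 CPM, those most like Dbp over the 12 animals were Usp11 (r = 0.942), Il11ra1 (0.941), Twnk (0.935), Pdzd4 (0.891) and Tmem97 (0.884). For Per1 they were BC005624 (r = 0.887), Heatr6 (0.883), Erf (0.873), Selenon (0.869) and Repin1 (0.867). These are the ends of a ranking of r values over shared libraries and are descriptive. No other member was among the 5 nearest of either gene. The nearest member to Dbp was Tef (r = 0.550, rank 888) and the nearest to Per1 was Cry2 (r = 0.624, rank 302), so many other genes were nearer.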

How the data were processed

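Ribosome-depleted total RNA of mouse cortex was sequenced (24 libraries, 4 groups of 6, grouped by title). The deposited values are log2 CPM in 4 tables, 1 per pair of groups, per the file headers; the authors scaled each table separately, so tests stay within a table. The submitters' processing notes name mm10; the aligner, counting method, strand use and filters are not given in the sources used here. All 12 columns of each table matched 1 sample each (0 columns unused).

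In every gene and group the 2 lowest deposited values were equal, as were the 2 highest. They equal the quartiles, 0.75 times the second value plus 0.25 times the third, which was solved for the second value. After recovery, 78.8% to 88.0% of low tied values per group and table were whole reads within 0.03 read, against 8.4% to 13.6% as deposited. Because these ties understate the spread, the main test was the moderated trimmed-mean test (limma 3.58.1, R 4.3.3): mean of 4 inner values, Winsorized sum of squares, 6 degrees of freedom (12 for the interaction), prior with trend, two-sided, Benjamini-Hochberg over all genes of a table, called at an adjusted p under 0.05. It was tested on simulated data.

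CL and PI libraries of one number are the same animal by the labels. Deviations of a library correlated with those of its animal's other side from -0.137 to 0.297, and best with it in 6 of 12 animals. The genotypes differed in this. In WT only animal 4 (r = -0.137) did not match best with its own other side. In KO only animal 4 (r = 0.121) did, and r ran from -0.015 to 0.160. Pairing was thus weakly visible in KO, where the block also made calls. The replicate block paired libraries in a dependent trimmed-mean test (3 degrees of freedom before moderation by the same kind of prior). Between genotypes only the number is shared (r of -0.222 to 0.144).

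Named genes are the 10 members, called genes of the clock lists, the genes with the smallest p of the other lists, and the 5 genes most like Dbp and Per1. Members, lists and tests were chosen with earlier results of these data known. Positions are from GENCODE M21 (GRCm38); upstream windows were matched by symbol for 9 of 10 members in the RefSeq table (13 windows). Depth was read from the step that makes low values whole (3.75 to 10.5 M reads, megareads); intervals reflect the spread between libraries. Alternatives were limma on deposited values, a prior without trend, centring on the median gene, a minimum mean of 1 log2 CPM, log2(CPM + 0.5), the block and, for the interaction, the tables that compare KO with WT.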

Additional observations from a re-analysis of the deposited data

How the results depend on the processing

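Over 310 alternative values of the 50 differences of clock genes (10 genes in 5 comparisons), 290 kept direction and side of the threshold. Another 17 passed it newly, 1 lost it and 2 changed sign. Direction could not change under limma on deposited values, the prior without trend, the minimum mean or the block. These settings leave each log2 difference as it was and alter only its SE and adjusted p. The minimum mean and the constant added to CPM kept all 50 on their side of the threshold, and members lay far above both. The count of 290 is therefore no test of direction for most of these values. The 2 sign changes came with centring of each group on its median gene, for Cry1 between sides in WT (-0.0006, from 0.03) and Nr1d2 between sides in KO (-0.0205, from 0.01). That centring called 1 member in WT (Nr1d1) and 2 in KO (Nr1d1 and Per3), and changed the calls over all genes from 754 higher and 783 lower to 636 higher of 1689 in WT, and from 732 higher and 708 lower to 589 higher of 1606 in KO. Without a trend of the prior, the side comparison called 1015 genes in WT and 739 in KO, and 0 members in KO. Limma on the deposited values, whose spread is understated, called 6459 genes between sides in WT, 6666 in KO, 2388 between genotypes in PI, 2311 in CL and 1940 for the interaction, with 6 members in WT, 6 in KO and 1 between genotypes in CL (Per2). With the replicate block, 1 member was called in WT and 3 in KO. Between genotypes, where pairing rests on a number alone, the block called 6 genes in PI, 85 in CL and 1 for the interaction, and 0 members. Counts of relations between members or sides passing after adjustment were 0 under every alternative run. The recoverable values of the members rested on at least 72.7 reads, whereas the extremes of each group, being drawn in, were out of reach.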
